A study of Mus musculus with 5 samples.

Results

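The genes described here make NADPH, build and use glutathione, and remove peroxides and superoxide. They are 42 named genes of the pentose phosphate pathway, of glutathione synthesis and use, of the thioredoxin and peroxiredoxin systems and of the NRF2 pathway. They were matched by gene symbol to the probes of an Illumina BeadArray, and each gene was read by its brightest probe over all 5 samples. Of the 42 genes, 38 had a probe and 37 were tested, among 16917 genes tested in all. G6pdx, Gsr, Prdx5 and Prdx6 were not analysed here. The probe of Pgd, which encodes the second NADPH-producing dehydrogenase of the pentose phosphate pathway, was too dim to be kept, with log2 signals of 7.28, 7.17 and 7.33 in mutIDH1 gliomas and of 7.11 and 7.25 in wtIDH1 gliomas.

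The samples were 5 mouse gliomas, 3 made with mutant IDH1 (mutIDH1) and 2 made with wild-type IDH1 (wtIDH1, the control), each profiled as whole tumour RNA. All 5 arose in untreated Ntva_Ink4a/Arf-/- mice of mixed FVB/N, C57BL6, BALB/C and 129 background, in which the tva receptor lets avian RCAS viruses into nestin-expressing cells. Each mouse received PDGFa-expressing DF1 cells, a chicken fibroblast line that sheds the viruses. These were mixed with DF1 cells carrying muIDH1-shp53 for the mutIDH1 tumours or wtIDH1-shp53 for the wtIDH1 tumours, where shp53 is by its name a short hairpin against p53. Both groups therefore shared the loss of Ink4a/Arf, the PDGFa virus and the p53 hairpin. The labels give every sample its own tumour code, and p-values measure the spread between these samples. The series asks by its title how mutant IDH1 acts on the immune system of gliomas, and the comparison here asks how redox genes differ between the forms of IDH1.

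NADPH is the electron donor with which cells rebuild reduced glutathione and thioredoxin. Much of it comes from the oxidative pentose phosphate pathway, and in glioma cells wild-type IDH1 also makes it from isocitrate, while tumour-associated mutant IDH1 uses NADPH to make the metabolite 2-hydroxyglutarate. Glutathione peroxidases and peroxiredoxins spend these reduced thiols on peroxides. NRF2 (gene Nfe2l2), held back by KEAP1, switches on many of these genes through a short DNA element in their promoters.

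Matches to the core of that element, TGACNNNGC read on either strand, are shown for the tested genes because NRF2 is the best known common regulator of these genes, and they were found without any expression value. The windows run from 250 bases before to 50 bases after each start site and come from RefSeq, build GRCm38.p6. Each sequence below is 29 bases long, with the match in capitals.
Gclm, chr3:122245413-122245441, minus strand: tcgtgagagtTGACGGTGCgcccgggagc
Mgst1, chr6:138140461-138140489, minus strand: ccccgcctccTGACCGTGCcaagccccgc
Gstm5, chr3:107895802-107895830, plus strand: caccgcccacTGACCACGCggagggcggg
Txnrd1, chr10:82859104-82859132, minus strand: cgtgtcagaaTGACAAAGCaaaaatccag
Srxn1, chr2:152105542-152105570, minus strand: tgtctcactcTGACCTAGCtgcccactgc
Prdx1, chr4:116685456-116685484, minus strand: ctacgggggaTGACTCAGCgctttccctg
Sod1, chr16:90220696-90220724, minus strand: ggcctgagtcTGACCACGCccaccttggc
Nfe2l2, chr2:75704885-75704913, minus strand: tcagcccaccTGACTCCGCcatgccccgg

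Of 36 listed genes with a promoter window, 10 held the core, or 27.8%. They are the 8 shown and G6pdx and Pgd, for which no level was tested. Gclc, Gsta4, Sod3 and Hmox1 were tested but had no promoter window, so they were not searched for the core. Of 7748 genes above background on all arrays that had a window, 16.7% held the core, and of all 27025 genes with a window 14.0% did. The match in Prdx1 also holds the AP-1 core TGACTCA, and the other 7 matches shown do not. AP-1 cores stood in the windows of 4 of the 36 genes (Gstm5, Gstp1, Srxn1 and Prdx1), or 11.1%, and of 5.95% of all genes with a window. A match describes the letters of the window and is no evidence of binding.

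Signals are log2 values from arrays normalized to share 1 distribution. The 3 mutIDH1 tumours resembled each other more (Pearson r between 0.988 and 0.994 across the tested genes, which are not independent) than the 2 wtIDH1 tumours did (r = 0.971). The glioma markers Olig1, Olig2, Sox10 and Pdgfra were above background on all 5 arrays. Idh1 itself was at 11.08, 10.73 and 10.94 in mutIDH1 gliomas and at 11.02 and 10.47 in wtIDH1 gliomas, and whether its probe reads the delivered IDH1 was not tested. Pdgfa, the gene of the shared ligand, was at 10.84, 10.82 and 10.85 in mutIDH1 gliomas and at 11.53 and 11.52 in wtIDH1 gliomas (limma adjusted p = 0.0227, and from 0.0837 to 0.169 without any 1 mutIDH1 sample). An estimated background level of 7.51 was used to mark dim probes. Since background was not subtracted, differences of dim probes are compressed towards 0.

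Of the 37 tested genes, 1 fell and 0 rose in mutIDH1 gliomas by limma with Benjamini-Hochberg adjustment over all 16917 genes at 0.05. Of all tested genes, 0.899% fell and 0.449% rose. At an unadjusted p under 0.05, 8 of the 37 were lower and 2 were higher, where 7.25% and 7.11% of all genes were. The gene that fell was Taldo1, and the largest difference among those that did not pass was that of Hmox1, also lower. Differences below 0 were more frequent than in the whole table: 28 of 37 genes, against 45.6% of all genes. Among genes above background on every array, 24 of 33 were below 0, where 45.3% of all such genes were. The median difference over the 37 was −0.12 on the log2 scale, and over all genes it was 0.014. The median size of the difference, without its sign, was 0.193 over the 37 and 0.100 over all genes. These 2 sizes are not on a like footing, since dim probes are compressed towards 0. At or under background on every array were 5002 of all 16917 genes and 1 of the 37. Of the 37, 3 differed by more than 1.5-fold either way (Taldo1, Gpx8 and Hmox1).

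The groups did not overlap for 15 of the 37 genes. All 3 mutIDH1 tumours were below both wtIDH1 tumours for 12 of them, where 14.0% of all genes showed this, and above both for 3, where 16.7% did. Counting only genes above background on all 5 arrays, 11 of 33 lay below and 3 of 33 above, where 15.9% and 19.1% of all such genes did. The 12 lower genes were Tkt, Taldo1, Gclc, Gpx4, Gpx8, Gstm5, Gstt1, Txn1, Prdx1, Sod1, Cat and Hmox1, and the 3 higher ones were Gpx1, Txnrd2 and Srxn1. Without wtIDH1 sample 1 the counts were 20 lower and 7 higher, where 26.8% and 33.6% of all genes were. Without wtIDH1 sample 2 they were 17 lower and 7 higher, where 29.7% and 32.4% were.

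**Figure D1:**
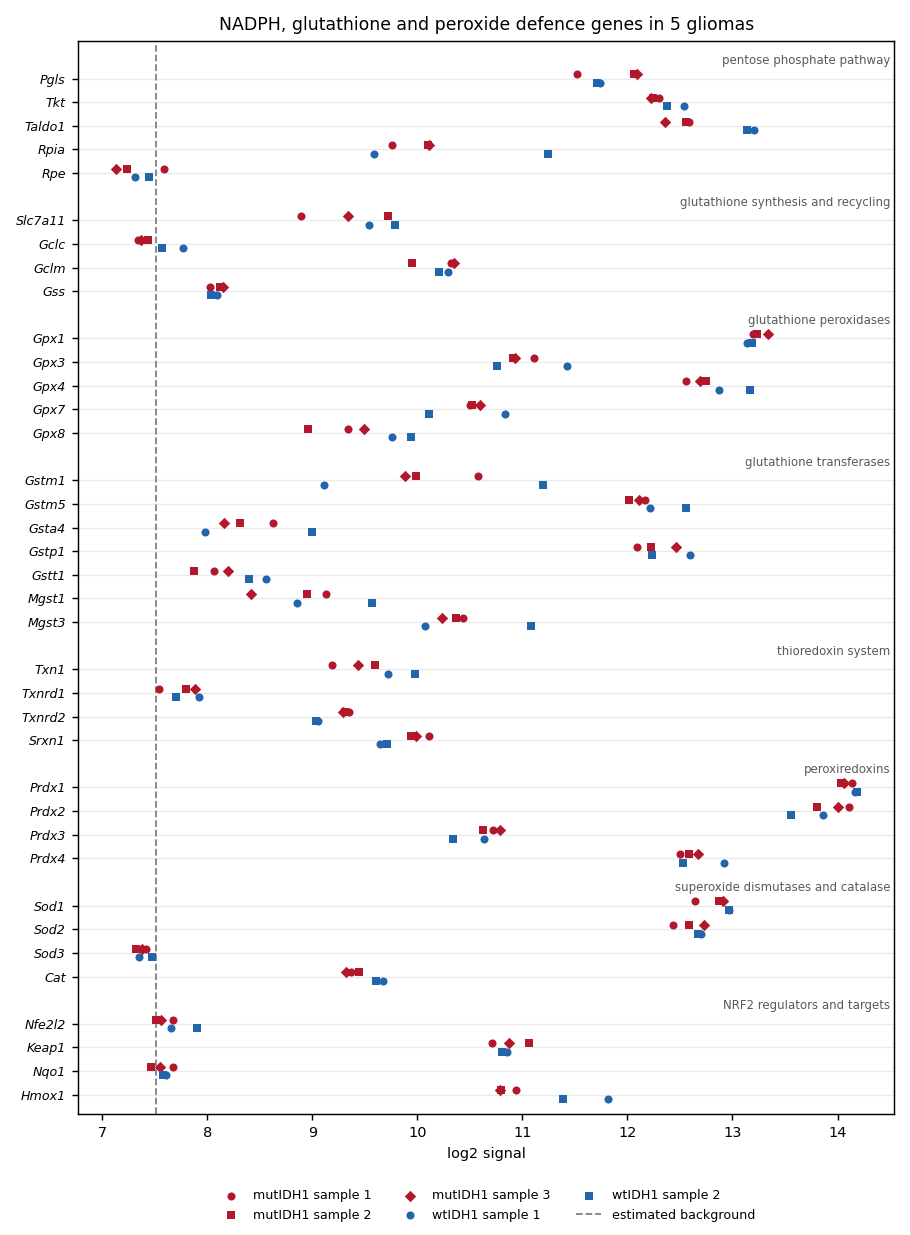
Log2 signal (x axis) of each tested gene (rows, grouped by role) in every tumour, with mutIDH1 samples in red above wtIDH1 samples in blue and the marker shape giving the sample number. The dashed line is the estimated background of 7.51; Taldo1 and Hmox1 show the clearest separation, and Gstm1 and Rpia the widest gap between the 2 wtIDH1 tumours.

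In the pentose phosphate pathway 1 of 5 tested genes fell, Taldo1. Transaldolase, its product, moves 3-carbon units between sugar phosphates in the non-oxidative branch that links the pathway to glycolysis. Taldo1 stood at 12.58, 12.55 and 12.36 in mutIDH1 gliomas, against 13.20 and 13.14 in wtIDH1 gliomas. Every mutIDH1 tumour lay below every wtIDH1 tumour, and the gap between the groups was wider than the spread within either. The means were 12.50 ± 0.12 in mutIDH1 (SD, n = 3) and 13.17 ± 0.05 in wtIDH1 (SD, n = 2), a difference of −0.67 ± 0.10 (log2, SE; 0.628 of the wtIDH1 signal) with a limma adjusted p of 0.0479. The call lay just under the threshold: without any 1 of the 5 samples the difference stayed between −0.71 and −0.60 while the adjusted p ran from 0.0607 to 0.213. It was also lost with normexp background correction (adjusted p = 0.0672) and with Xist, a marker of female tissue, as a covariate (adjusted p = 0.0946), at differences of −0.68 and −0.65. With the shared sample numbers as a block, 0 of all genes were called, so Taldo1 was lost there too.

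The 250 bases before the start site of Taldo1 are shown because it is the gene that passed. They lie on the plus strand of chr7:141391910-141392159 (GRCm38.p6), hold 1 GC box (GGGCGG) and 1 CCAAT box, read on either strand and printed in capitals, and hold 0 matches to TGACNNNGC.
Taldo1: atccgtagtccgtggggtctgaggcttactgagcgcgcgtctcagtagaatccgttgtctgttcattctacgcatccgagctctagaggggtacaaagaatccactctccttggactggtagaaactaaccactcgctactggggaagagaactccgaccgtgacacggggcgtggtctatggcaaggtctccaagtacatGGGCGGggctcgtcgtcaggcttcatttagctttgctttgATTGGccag

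GC boxes were in the windows of 88.9% of the 36 genes, 70.9% of genes above background on all arrays and 38.2% of all genes with a window. CCAAT boxes were in those of 38.9%, 43.5% and 41.1%.

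Tkt, transketolase of the same branch, was at 12.30, 12.24 and 12.22 in mutIDH1 gliomas and at 12.54 and 12.38 in wtIDH1 gliomas. The groups did not overlap, and the difference of −0.20 ± 0.08 did not pass (adjusted p = 0.354). Rpia, the isomerase that makes ribose 5-phosphate, was at 9.76, 10.10 and 10.11 in mutIDH1 gliomas, between the wtIDH1 values of 9.59 and 11.24. Its difference of −0.43 ± 0.47 therefore rested on which wtIDH1 tumour was used. It was −1.25 without wtIDH1 sample 1 (limma adjusted p = 0.0405) and 0.40 without wtIDH1 sample 2. Pgls, the lactonase of the oxidative branch, differed by 0.17 ± 0.19 with overlapping groups. Rpe, the epimerase, was above background on 1 of 5 arrays and gave −0.06 ± 0.15.

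Among 4 tested genes of glutathione synthesis, 0 passed by limma and 1 had an unadjusted p under 0.05. That was Gclc, the catalytic subunit of the rate-limiting glutamate-cysteine ligase, at 7.34, 7.44 and 7.37 in mutIDH1 gliomas and at 7.77 and 7.57 in wtIDH1 gliomas. All 3 mutIDH1 values were at or under the background of 7.51, and wtIDH1 sample 2 was just above it. With the mutIDH1 values set to that level, the group means put the wtIDH1 signal at least 1.12-fold higher, without allowance for error. The difference was −0.29 with a 95% interval from −0.51 to −0.07 (limma adjusted p = 0.226). Gclm, the modifier subunit of that enzyme, was at 10.32, 9.95 and 10.34 in mutIDH1 gliomas and at 10.30 and 10.20 in wtIDH1 gliomas. The values overlapped, and the difference was −0.04 with a 95% interval from −0.40 to 0.31. Slc7a11, the cystine importer that feeds the pathway, was at 8.90, 9.72 and 9.34 in mutIDH1 gliomas and at 9.54 and 9.79 in wtIDH1 gliomas. Its difference was −0.35 ± 0.24, but its next brightest probe gave 0.23. Gss, glutathione synthetase, differed by 0.04 (95% interval −0.15 to 0.23) with overlapping groups. Its next brightest probe gave 0.16 with all mutIDH1 tumours higher, and another gave 0.05 with overlap. Its dimmest, at or under background on every array, gave −0.15 with all mutIDH1 tumours lower.

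None of the 5 glutathione peroxidases passed by limma, and 2 had an unadjusted p under 0.05, Gpx4 and Gpx8. Gpx8, a peroxidase of the endoplasmic reticulum, was at 9.34, 8.96 and 9.49 in mutIDH1 gliomas and at 9.76 and 9.93 in wtIDH1 gliomas. The groups did not overlap on any of its 3 probes, whose differences were −0.59, −0.37 and −0.78. For the brightest the adjusted p was 0.201. Gpx4, the enzyme that reduces lipid peroxides and holds off ferroptosis, was at 12.56, 12.75 and 12.69 in mutIDH1 gliomas and at 12.87 and 13.17 in wtIDH1 gliomas. Its difference was −0.36 ± 0.12 (adjusted p = 0.254). Its second probe gave −0.45, also without overlap, and the dimmest of the 3 gave 0.02.

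Gpx1, the main cytosolic peroxidase, was at 13.20, 13.23 and 13.34 in mutIDH1 gliomas, just above the 13.14 and 13.19 of wtIDH1 gliomas. The difference was 0.09 with a 95% interval from −0.10 to 0.29 (adjusted p = 0.695). Gpx3, the secreted peroxidase, and Gpx7, another peroxidase of the endoplasmic reticulum, kept tight values in mutIDH1 gliomas, from 10.91 to 11.11 and from 10.50 to 10.59. They lay between the wtIDH1 values of both genes, which were 11.42 and 10.76 for Gpx3 and 10.83 and 10.11 for Gpx7 in samples 1 and 2.

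Glutathione transferases, which attach glutathione to reactive compounds, all had differences below 0 (7 of 7), and 0 of them passed by limma. The clearest was Gstt1, at 8.06, 7.88 and 8.19 in mutIDH1 gliomas and at 8.56 and 8.39 in wtIDH1 gliomas. Its groups did not overlap, and the difference was −0.43 ± 0.12 (unadjusted p = 0.0125, adjusted p = 0.179). Gstm5 was at 12.16, 12.01 and 12.11 in mutIDH1 gliomas and at 12.21 and 12.56 in wtIDH1 gliomas, a difference of −0.29 ± 0.12 (adjusted p = 0.381). Gstp1 differed by −0.16 ± 0.16, and its second bright probe by −0.28. Mgst1, a microsomal transferase, differed by −0.38 ± 0.29, with overlapping groups. Transferases of 1 class resemble each other in sequence, and how far their probes cross-react was not tested.

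Gstm1, Gsta4 and Mgst3 differed more between the 2 wtIDH1 tumours than between the groups. Gstm1, a transferase of the mu class, was at 10.58, 9.99 and 9.88 in mutIDH1 gliomas, and at 9.11 and 11.19 in wtIDH1 gliomas. The gap of 2.08 between the wtIDH1 tumours was the largest among the 37 genes, and the group difference was −0.003 with a 95% interval from −1.53 to 1.53. Gsta4, which conjugates products of lipid peroxidation, was at 8.62, 8.31 and 8.16 in mutIDH1 gliomas, and at 7.97 and 9.0 in wtIDH1 gliomas. Mgst3 was at 10.43, 10.37 and 10.23 in mutIDH1 gliomas, and at 10.08 and 11.08 in wtIDH1 gliomas.

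These 3 genes put the 5 tumours in the same order, wtIDH1 sample 2 highest, then mutIDH1 samples 1, 2 and 3, and wtIDH1 sample 1 lowest, which 1.86% of all genes did. The mean level of 9 neuron markers had this order too, at 9.73, 9.60 and 9.16 in mutIDH1 samples 1 to 3 and at 7.71 and 10.11 in wtIDH1 samples 1 and 2. The mean of 10 astrocyte markers was at 11.07, 10.72 and 10.58 in mutIDH1 gliomas, and at 9.93 and 10.96 in wtIDH1 gliomas. That of 8 oligodendrocyte markers was at 11.88, 10.53 and 10.10 in mutIDH1 gliomas, and at 9.84 and 11.66 in wtIDH1 gliomas. At or under background on every array were 3 of the 9 neuron markers, 1 of the 8 oligodendrocyte markers and 0 of the 10 astrocyte markers. The part of these cell types in the values of the 3 genes was not tested. In whole tumour RNA, fewer cells of a type and less RNA per cell cannot be told apart. All 3 mutIDH1 values lay between the 2 wtIDH1 values for 6 of the 37 genes (Rpia, Gpx3, Gpx7, Gstm1, Gsta4 and Mgst3), where 12.1% of all genes showed this. The 2 wtIDH1 tumours differed by more than 1 for 4 of the 37 genes, where 2.61% of all genes did. That share includes 5002 genes at or under background on every array, whose signals, from 6.91 to 7.51, cannot differ by so much. The 4 genes were above background on all 5 arrays.

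**Figure D2:**
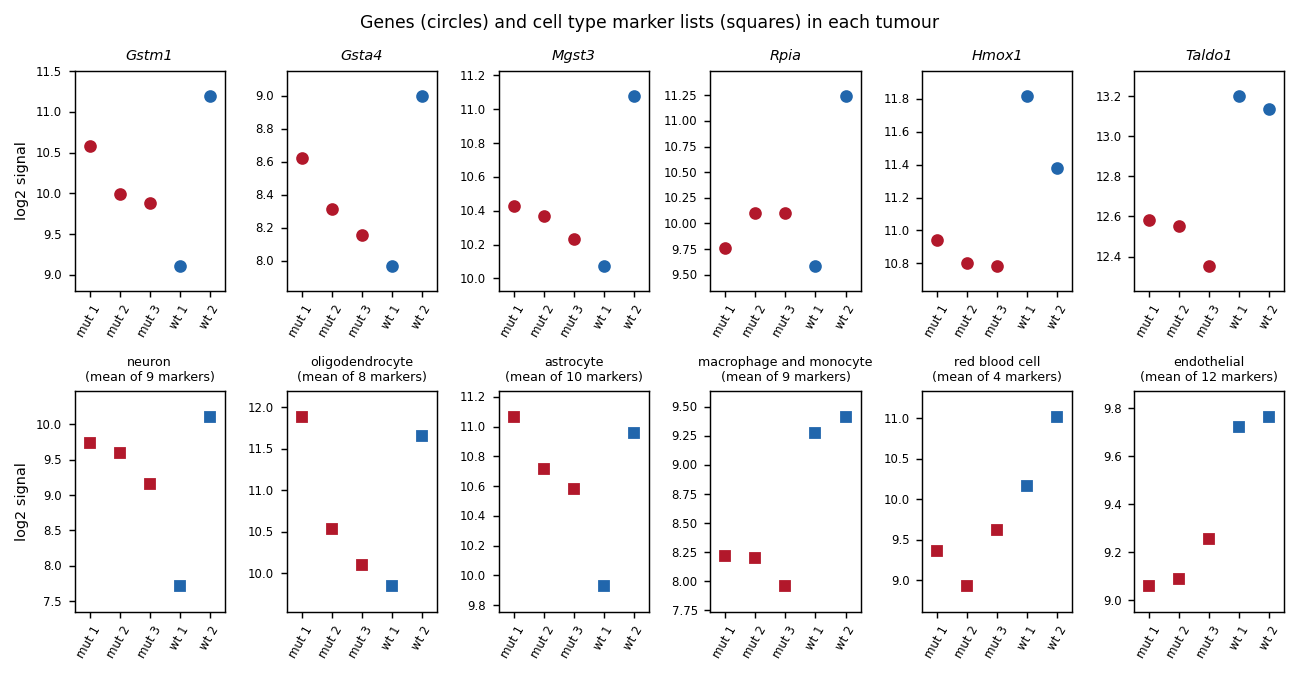
Log2 signal in each tumour (mutIDH1 in red, wtIDH1 in blue) for 6 of the genes (top row, circles) and for the mean of 6 cell type marker lists (bottom row, squares), each panel with its own y axis. Gstm1, Gsta4 and Mgst3 are lowest in wtIDH1 sample 1 and highest in wtIDH1 sample 2, as the neuron list is, while Hmox1, Taldo1 and the macrophage, red blood cell and endothelial lists are higher in both wtIDH1 tumours than in the 3 mutIDH1 tumours.

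The 4 tested genes of the thioredoxin system had differences in both directions, and 0 passed by limma, though 3 had an unadjusted p under 0.05. Txn1, the cytosolic thioredoxin, was at 9.18, 9.60 and 9.44 in mutIDH1 gliomas and at 9.72 and 9.98 in wtIDH1 gliomas, a difference of −0.44 ± 0.15 (adjusted p = 0.267). Srxn1, sulfiredoxin, which restores over-oxidized peroxiredoxins, was at 10.11, 9.94 and 9.99 in mutIDH1 gliomas and at 9.65 and 9.71 in wtIDH1 gliomas. All 3 mutIDH1 tumours were higher, by 0.33 ± 0.08 on average (adjusted p = 0.151), the largest difference above 0 among the 37 genes. Its other 2 probes gave 0.23 and 0.11, with overlapping groups.

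Txnrd2, the mitochondrial thioredoxin reductase, was at 9.35, 9.31 and 9.29 in mutIDH1 gliomas and at 9.06 and 9.03 in wtIDH1 gliomas. The spread within each group was small, and the difference was 0.27 ± 0.07 (adjusted p = 0.15), but a dimmer probe of the gene gave −0.06. Txnrd1, the cytosolic reductase, differed by −0.08 (95% interval −0.41 to 0.26), with overlapping groups.

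Peroxiredoxins, abundant enzymes that reduce hydrogen peroxide with thioredoxin, held 0 genes past the test by limma among 4 tested, and 0 at an unadjusted p under 0.05. Prdx1 was at 14.14, 14.04 and 14.06 in mutIDH1 gliomas and at 14.16 and 14.19 in wtIDH1 gliomas. The groups were apart by little: the difference was −0.10 with a 95% interval from −0.28 to 0.08 (adjusted p = 0.644). Prdx2 was at 14.11, 13.80 and 14.00 in mutIDH1 gliomas and at 13.86 and 13.56 in wtIDH1 gliomas, a difference of 0.26 ± 0.14, where its other probes gave −0.01 and, without overlap, −0.16. Prdx3, the mitochondrial form, differed by 0.22 ± 0.11 and Prdx4, the form of the endoplasmic reticulum, by −0.14 ± 0.13, both with overlapping groups.

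Superoxide dismutases turn superoxide into hydrogen peroxide, and catalase breaks hydrogen peroxide down. All 4 of these genes had differences below 0, and 0 passed by limma. Cat, catalase, was at 9.37, 9.44 and 9.32 in mutIDH1 gliomas and at 9.68 and 9.60 in wtIDH1 gliomas, a difference of −0.26 ± 0.08 (unadjusted p = 0.0161, adjusted p = 0.203) without overlap. Sod1, the cytosolic dismutase, was at 12.64, 12.88 and 12.91 in mutIDH1 gliomas and at 12.97 and 12.97 in wtIDH1 gliomas, −0.16 ± 0.10 (adjusted p = 0.60). Sod2, the mitochondrial dismutase, differed by −0.10 (95% interval −0.36 to 0.16). Sod3, the secreted form, was at or under background on all 5 arrays.

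Of 4 regulators and classical targets of NRF2, 0 passed by limma. Hmox1, heme oxygenase, an enzyme that macrophages use to break down heme, was at 10.94, 10.80 and 10.79 in mutIDH1 gliomas and at 11.82 and 11.38 in wtIDH1 gliomas. Every mutIDH1 tumour was lower, and the 2 wtIDH1 tumours differed from each other by 0.43. The difference was −0.76 ± 0.14 (0.592 of the wtIDH1 signal, adjusted p = 0.0888). It passed without wtIDH1 sample 2 (−0.97, adjusted p = 0.0237) and with trended and robust moderation (adjusted p = 0.0408). Without wtIDH1 sample 1 it was −0.54 (adjusted p = 0.0947), and without any 1 mutIDH1 sample the adjusted p ran from 0.173 to 0.323.

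The mean level of 9 macrophage and monocyte markers was at 8.22, 8.20 and 7.96 in mutIDH1 gliomas, and at 9.27 and 9.41 in wtIDH1 gliomas. All 9 had differences below 0, 4 fell by the test, and none was at or under background on every array. Over all tested genes, 45.6% had differences below 0 and 0.899% fell, and 7.25% were lower at an unadjusted limma p under 0.05. Red blood cell markers (4 tested, all with differences below 0, of which 0 fell by limma and 3 had an unadjusted p under 0.05) had means of 9.36, 8.92 and 9.62 in mutIDH1 gliomas, and of 10.16 and 11.02 in wtIDH1 gliomas. Endothelial markers (12 tested, 11 below 0, 4 fell, and 1 under background throughout) had means of 9.06, 9.09 and 9.26 in mutIDH1 gliomas, and of 9.72 and 9.76 in wtIDH1 gliomas. Mural and fibroblast markers (12 tested, 9 below 0, 3 fell, and 0 under background throughout) had means of 9.19, 9.07 and 9.12 in mutIDH1 gliomas, and of 9.76 and 9.79 in wtIDH1 gliomas. In this list Rgs5, Cspg4 and Pdgfra were above 0, and Cspg4 and Pdgfra are also in the oligodendrocyte precursor list. Neutrophil markers (11 tested, 8 below 0, 2 fell) had means of 7.39, 7.36 and 7.38 in mutIDH1 gliomas, and of 7.79 and 7.70 in wtIDH1 gliomas. The 2 that fell were S100a8 and S100a9, and 4 of the 11 (Elane, Cxcr2, Ngp and Mmp8) were at or under background on every array. All 5 of these list means were lower in every mutIDH1 tumour, as Hmox1 and Taldo1 were. Between the 2 wtIDH1 tumours both genes were higher in sample 1, as the neutrophil mean was, and the other 4 list means were higher in sample 2. The part of these cells in the values of Hmox1 and Taldo1 was not tested. Microglia markers (11 tested, 5 below 0, 0 fell) had overlapping means, of 9.19, 9.23 and 9.12 in mutIDH1 gliomas and of 9.03 and 9.52 in wtIDH1 gliomas. The means of the T and NK cell list and of the ependymal and choroid plexus list also overlapped. The oligodendrocyte precursor mean (8 tested, 6 above 0, 0 rose by limma) was higher in every mutIDH1 tumour, at 11.85, 11.83 and 11.75 against 11.66 and 11.71. Of these 8 markers 3 were higher without overlap, and 2 were lower without overlap, Olig1 (−0.32) and Neu4 (−0.60). Over all genes 16.7% and 14.0% were.

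Neither regulator passed the test. Keap1 was at 10.71, 11.07 and 10.87 in mutIDH1 gliomas and at 10.85 and 10.80 in wtIDH1 gliomas, a difference of 0.06 with a 95% interval from −0.24 to 0.36. Its other probes above background on all arrays gave −0.03, −0.01 and, with all mutIDH1 tumours higher, 0.20. Nfe2l2 was close to background, at 7.67, 7.52 and 7.56 in mutIDH1 gliomas and at 7.65 and 7.90 in wtIDH1 gliomas (−0.19 ± 0.10, adjusted p = 0.509). Nqo1, a quinone reductase and a common readout of NRF2, was above background on 4 of 5 arrays and differed by −0.03 (95% interval −0.25 to 0.19). At this signal the array says little about Nqo1.

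**Figure D3:**
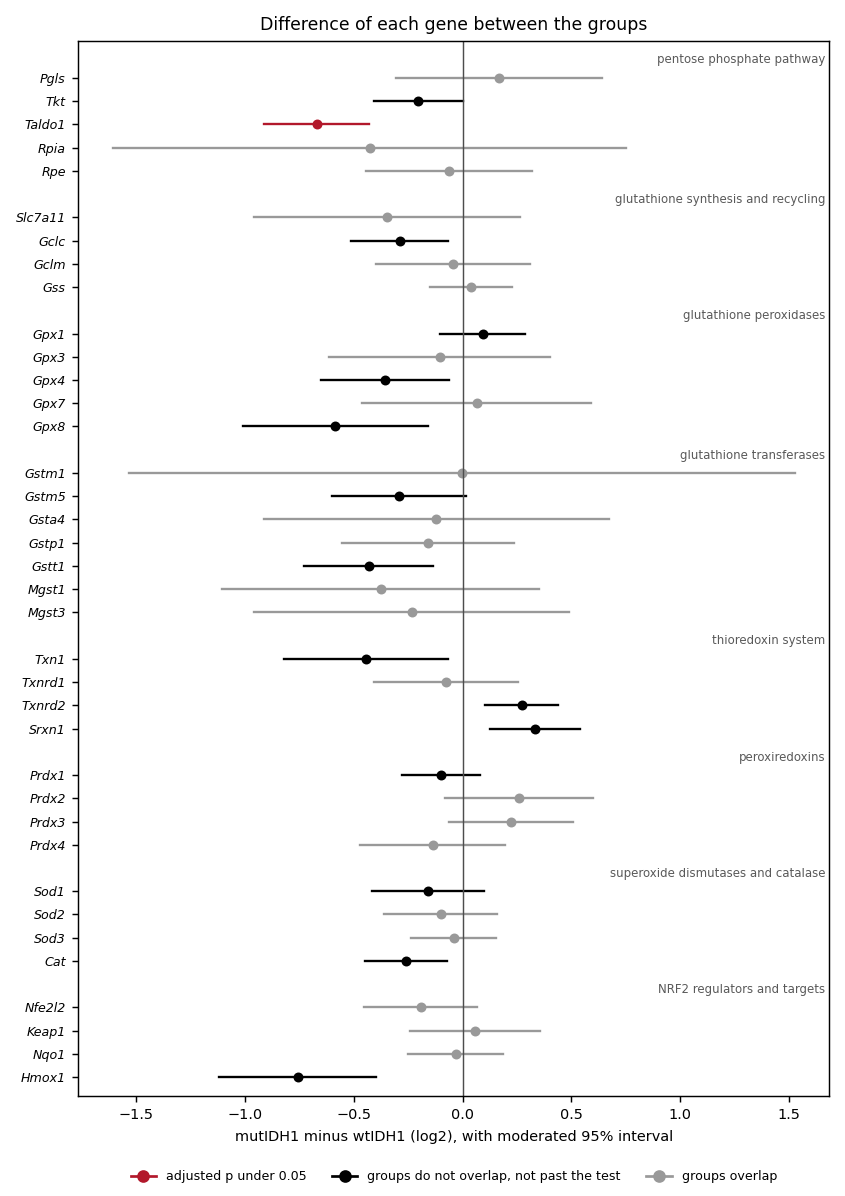
Difference between mutIDH1 and wtIDH1 gliomas on the log2 scale (x axis) with the moderated 95% interval for each tested gene (rows, grouped by role). Taldo1, in red, passed the test; genes in black had groups that did not overlap and did not pass, among them Hmox1 at −0.76 and Srxn1 at 0.33.

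Of the 37 genes, 11 had at least 2 probes above background on all 5 arrays. All such probes had the same sign for 6 of them (Tkt, Gss, Gpx8, Gstp1, Mgst3 and Srxn1), and not for 5 (Slc7a11, Gpx4, Txnrd2, Prdx2 and Keap1). Taldo1 and Hmox1 had 1 probe each, so their values have no such check.

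**Figure D4:**
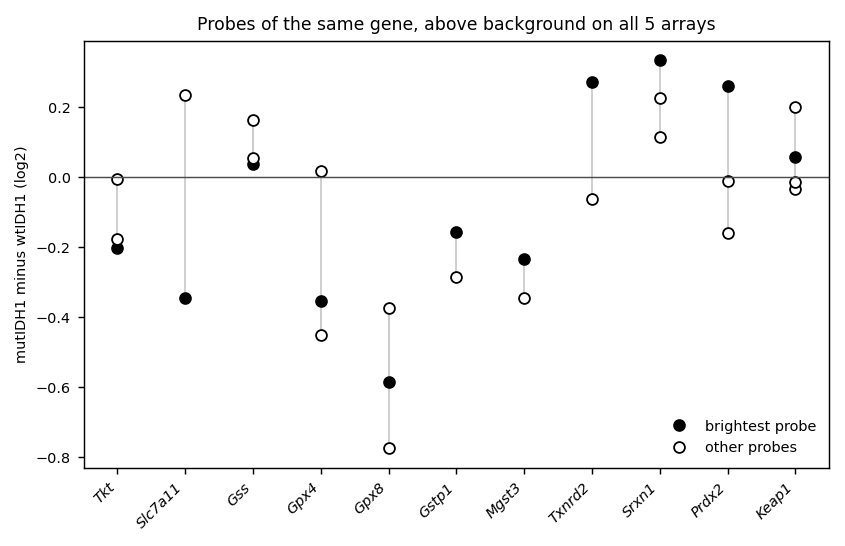
Difference between mutIDH1 and wtIDH1 gliomas (y axis, log2) for every probe above background on all 5 arrays, for the 11 genes (x axis) with at least 2 such probes. Filled circles are the brightest probes and open circles the others; all 3 probes of Gpx8 are below 0 and all 3 of Srxn1 above it.

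Other genes of the same pathways were read from lists chosen with earlier results of these data known. For the counts below, 0.899% of all tested genes fell and 0.449% rose by limma. At an unadjusted p under 0.05, lower genes were 7.25% and higher genes 7.11% of all. Of 15 tested genes of other NADPH sources, 0 passed by limma, and 5 had an unadjusted p under 0.05 (median difference 0.009). The smallest p-values were those of Idh2 and H6pd. Idh2, the mitochondrial isocitrate dehydrogenase, was at 10.02, 9.73 and 9.88 in mutIDH1 gliomas and at 10.53 and 10.75 in wtIDH1 gliomas, −0.76 ± 0.12 (adjusted p = 0.0596, and 0.0329 with trended and robust moderation). H6pd, which starts a pentose phosphate pathway inside the endoplasmic reticulum, was at 8.47, 8.46 and 8.42 in mutIDH1 gliomas and at 8.77 and 8.88 in wtIDH1 gliomas, −0.37 ± 0.07 (adjusted p = 0.0945). Idh1 differed by 0.17 ± 0.19 (adjusted p = 0.783).

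Of 36 other glutathione genes, 2 fell and 0 rose (median −0.04). Gstm2, a mu class transferase, was at 8.20, 8.0 and 7.94 in mutIDH1 gliomas and at 9.30 and 9.19 in wtIDH1 gliomas, −1.20 ± 0.10 (adjusted p = 0.0201). Ggct, which degrades gamma-glutamyl peptides released from glutathione, was at 8.99, 8.89 and 8.97 in mutIDH1 gliomas and at 10.49 and 9.92 in wtIDH1 gliomas, −1.26 ± 0.17 (adjusted p = 0.0443). In both genes the groups were well apart. Both calls were lost without any 1 mutIDH1 sample (adjusted p from 0.0502 to 0.165 for Gstm2 and from 0.132 to 0.229 for Ggct) and kept without either wtIDH1 sample. With Xist as a covariate Ggct was also lost (adjusted p = 0.0729), and the mean of its probes gave a smaller difference of −0.75 (adjusted p = 0.0185). A fit with the shared sample numbers as a block called 0 of all genes, so both calls and those of other genes below were lost there too.

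Of 15 other thioredoxin and repair genes, 1 fell and 1 rose (median −0.14). Txnip, which binds and inhibits thioredoxin and is induced by glucose, was at 9.31, 9.65 and 9.09 in mutIDH1 gliomas and at 10.51 and 10.72 in wtIDH1 gliomas, −1.26 ± 0.18 (adjusted p = 0.0471). Msrb2, a mitochondrial methionine sulfoxide reductase, was at 9.95, 9.88 and 9.97 in mutIDH1 gliomas and at 9.42 and 9.32 in wtIDH1 gliomas, 0.56 ± 0.07 (adjusted p = 0.0432). Both calls were lost without any 1 of the 5 samples, with adjusted p from 0.0592 to 0.164 for Txnip and from 0.0581 to 0.193 for Msrb2. Txnip was also lost with cyclic loess and with Xist, and Msrb2 with trended and robust moderation, normexp and Xist.

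Of 24 partners and other targets of NRF2, 1 fell and 0 rose (median −0.06). Slc48a1, a heme transporter, was at 9.34, 9.40 and 9.42 in mutIDH1 gliomas and at 9.90 and 9.87 in wtIDH1 gliomas, −0.50 ± 0.07 (adjusted p = 0.0443). Without any 1 sample its adjusted p ran from 0.0660 to 0.218, and the call was also lost with a stricter filter on dim probes, trended and robust moderation, normexp and Xist. Akr1b8, an aldo-keto reductase, was at 7.87, 7.73 and 7.81 in mutIDH1 gliomas and at 9.02 and 8.54 in wtIDH1 gliomas, −0.98 ± 0.15 (adjusted p = 0.0586). It passed with normexp, which took the difference to −1.31, with cyclic loess, with trended and robust moderation, and without either wtIDH1 sample. It did not pass without any 1 mutIDH1 sample (adjusted p from 0.141 to 0.260), and over all 5 fits with a sample left out the difference ran from −1.22 to −0.74.

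Of 15 tested genes for sources of superoxide and peroxide, 0 passed by limma and 4 had an unadjusted p under 0.05 (median −0.05). Ncf4, a cytosolic subunit of the phagocyte NADPH oxidase, was at 8.28, 8.34 and 8.18 in mutIDH1 gliomas and at 8.77 and 8.86 in wtIDH1 gliomas, −0.54 ± 0.08 (adjusted p = 0.0519). It passed when all dim probes were kept and when every gene was read by the mean of its probes. Rac2, the small GTPase of that oxidase in blood cells, was at 7.83, 8.01 and 7.95 in mutIDH1 gliomas and at 8.31 and 8.28 in wtIDH1 gliomas, −0.37 ± 0.08 (adjusted p = 0.128). Beyond these 2 genes, other tested subunits of that oxidase were mixed. Cyba differed by −0.57 (limma adjusted p = 0.173) and Ncf1 by 0.01, and Cybb was at or under background on every array. Ncf4 and Rac2 shared the direction of the macrophage and monocyte mean and of the neutrophil mean given above. In the neutrophil list S100a8 differed by −1.80 (adjusted p = 0.0191) and S100a9 by −1.34 (adjusted p = 0.0273), while 3 of the 11 markers had differences above 0. The part of these cells in the values of Ncf4 and Rac2 was not tested.

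**Figure D5:**
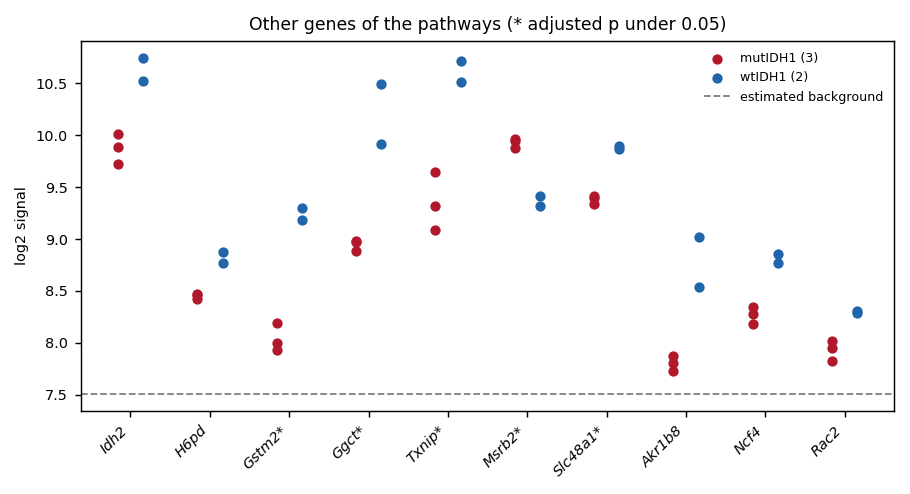
Log2 signal (y axis) of 10 further pathway genes (x axis) in the 3 mutIDH1 tumours (red, left) and the 2 wtIDH1 tumours (blue, right), with an asterisk at the genes that passed the test. Msrb2 is higher in all mutIDH1 tumours, and the other 9 genes are lower in all of them.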

How the data were processed

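Values are log2 signals of 45281 probes per array as deposited by the authors. Per the submitters' processing notes limma was used, with no version or steps named there. The 5 arrays share 1 distribution (medians differ by at most 0.000688), and the lowest value is 6.91. A table of non-normalized signals was not used, since its columns, named Sample 1 to Sample 5, were not matched to the samples. Detection p-values were therefore not used either.

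Probes were named through the platform annotation, and symbols updated through the RefSeq table of GRCm38.p6 (34885 probes with 1 symbol, 18 with several, 10378 unnamed here). The dimmest 20% of probes (mean under 7.23) were left out and each gene was its brightest probe. The background level of 7.51 is the mode of all signals (7.24) plus 3 times the spread below it (0.0882).

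Differences are mutIDH1 minus wtIDH1 (n = 3 and 2). They were tested 2-sided with moderated linear models (R 4.3.3, limma 3.58.1, 3 residual and 2.50 prior degrees of freedom) and Benjamini-Hochberg adjustment over all genes. The fit was tested on simulated data. The number of arrays limits precision. The members, lists and tests were chosen with earlier results of these data known. All members are named, and of other lists the genes that passed and the 2 with the smallest p. Alternatives covered the filter, probes, moderation, background, normalization, Xist, the replicate block and each sample left out.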

Additional observations from a re-analysis of the deposited data

How the results depend on the processing

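The median difference over the 37 genes stayed below 0 in every setting run, and between 23 and 28 of them were below 0. The count of these genes past the test was 1 with all samples. It was 2 with trended and robust moderation (Taldo1 and Hmox1), and 0 with normexp, with the Xist covariate and with the replicate block, alone or with trended and robust moderation. With samples left out it ranged from 0 to 1, and the gene called was Rpia without wtIDH1 sample 1 and Hmox1 without wtIDH1 sample 2, so Taldo1 was called in neither. Over all genes 228 passed, 363 with trended and robust moderation, 59 with the Xist covariate, 0 with either fit with the replicate block (1562 and 1414 at an unadjusted p under 0.05), and from 0 (without mutIDH1 sample 2 or 3) to 479 (without wtIDH1 sample 2) with samples left out. Whether the shared numbers pair the tumours was left undecided. Deviations from the group mean correlated at −0.263 and 0.107 for same-numbered samples. The deviations of the 2 wtIDH1 tumours mirror each other, so these correlations cannot show whether pairs exist. Outside the fits without 1 sample, the sign turned for Rpe (0.033 with both block fits) and Gstm1 (0.051 with the mean of its probes, 0.026 with normexp, 0.130 with both block fits). With samples left out the sign turned at least once for 15 genes, whose differences ranged from −1.04 to 1.04 for Gstm1, −1.25 to 0.40 for Rpia, −0.63 to 0.39 for Gsta4, −0.73 to 0.27 for Mgst3, −0.44 to 0.23 for Gpx3, −0.29 to 0.42 for Gpx7, −0.34 to 0.021 for Gstp1, −0.33 to 0.054 for Prdx4, −0.19 to 0.037 for Txnrd1, −0.20 to 0.033 for Rpe, −0.11 to 0.085 for Gclm, −0.10 to 0.022 for Sod3, −0.035 to 0.14 for Keap1, −0.088 to 0.016 for Nqo1 and −0.10 to 0.45 for Idh1. Signals near background, as for Rpe, Gclc, Sod3, Nqo1 and Nfe2l2, limit what can be read from these genes. The cause of these changes was not tested beyond the loss of samples that each such fit brings.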

Other observations

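Outside the rule for naming genes, 4 genes of the pathway lists are given here, chosen after their values were seen. They were higher in all mutIDH1 tumours by more than 1.5-fold in the group means, without passing the test. More genes of these lists were higher in all mutIDH1 tumours by less. Counting all sizes, these were 4 of 15 other NADPH sources, 7 of 36 other glutathione genes and 2 of 15 other thioredoxin and repair genes. They were also 3 of 24 NRF2 partners and targets and 0 of 15 superoxide and peroxide sources, where 16.7% of all genes were. Mthfd2, a mitochondrial folate enzyme, was at 11.86, 12.54 and 12.19 in mutIDH1 gliomas and at 11.26 and 11.12 in wtIDH1 gliomas, 1.0 ± 0.20 (limma adjusted p = 0.101). Aldh1l2, which makes NADPH from mitochondrial folate, was at 11.17, 11.61 and 11.60 in mutIDH1 gliomas and at 10.90 and 10.55 in wtIDH1 gliomas, 0.74 ± 0.18 (adjusted p = 0.148). Chac1, which cleaves glutathione, was at 11.53, 12.91 and 12.13 in mutIDH1 gliomas and at 9.86 and 10.89 in wtIDH1 gliomas, 1.82 ± 0.48 (adjusted p = 0.168). Sesn2, a stress-induced sestrin, was at 8.80, 9.29 and 8.95 in mutIDH1 gliomas and at 8.35 and 8.34 in wtIDH1 gliomas, 0.67 ± 0.15 (adjusted p = 0.127). In each of these genes mutIDH1 sample 2 was the highest and mutIDH1 sample 1 the lowest of the mutIDH1 tumours.

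Ftl1, the ferritin light chain that stores iron, was at 13.35, 13.47 and 13.15 in mutIDH1 gliomas and at 13.91 and 14.01 in wtIDH1 gliomas, −0.64 ± 0.12 (adjusted p = 0.0800), while Fth1, the heavy chain, differed by 0.02 ± 0.09 (adjusted p = 0.970). Both were also chosen after their values were seen. The difference between the 2 chains was not tested.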
